A study of Homo sapiens with 12 samples.

Results

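Chromosome 12 was represented on the arrays by 2237 probes out of 50599 distinct probes. They were the non-control probes that the files place on this chromosome of hg19, after 50 probes with a gene name beginning with HOX, KRT, OAS or COL had been left out. The chromosome was chosen because measured values on these same arrays had shown its genes to be shifted between clones, so those shifts are given below as a description and without a test. Of the 2237 probes, 1618 carried a gene symbol, for 1149 different symbols. Well above background, by the scanner software's call, were 956 of them on all 12 arrays, 534 on some arrays and 747 on none.

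The cells were Colo320DM, an established line from a human colorectal cancer, in which the study had stably knocked down TET1. TET1 converts 5-methylcytosine in DNA to oxidised forms. All clones had been transfected with an artificial microRNA vector that also encodes a green fluorescent protein, kept under drug selection and isolated as single clones, so that each is 1 clone and not a population. The control group held 3 clones with a negative control vector, CONT1, CONT2 and CONT3, and the knockdown group held 3 clones with a TET1 vector, KD1, KD2 and KD3; the plots call them control 1 to 3 and knockdown 1 to 3. From every clone there was 1 array of mock-treated cells and 1 of cells exposed for 72 h to 5-aza-2′-deoxycytidine (5-aza-dC) at 1 µM, a nucleoside that blocks DNA methyltransferases, which gave 4 groups of 3 arrays. The p-values below therefore measure the spread between single clones of a group, and the number of arrays limits the precision. Among mock control and treated knockdown clones this spread also holds a difference of slide, given below. The main fits did not pair the mock and the treated array of a clone. The p-values for 5-aza-dC are thus not for the spread of the change within clones. By the study's text, KD1 and KD2 carried one TET1 vector and KD3 another. Since these are bulk RNA samples, fewer cells that express a gene and less RNA per cell cannot be told apart.

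The arrays lay on 2 slides. Slide 1 held the mock arrays of CONT1, CONT2, KD1, KD2 and KD3 and the treated arrays of KD1 and KD3, and slide 2 held the other 5 arrays. Both arrays of KD1, of KD3 and of CONT3 therefore shared a slide, whereas the other 3 clones changed slide with treatment. On the brightest TET1 probe, the log2 signal in mock arrays was 4.56, 4.23 and 4.67 in control clones and 3.59, 3.51 and 3.57 in knockdown clones, which did not overlap. After 5-aza-dC it was 4.06, 4.42 and 4.16 against 2.98, 4.31 and 3.35, and KD2 fell within the range of the control clones. On the other two TET1 probes, treated KD2 lay below every treated control clone, at 1.02 against 1.99 to 2.37 and at -1.74 against -0.77 to -0.61. On mock arrays the groups did not overlap on the first of these, and on the second KD1 (-1.14) and CONT3 (-1.15) overlapped. Of 5 markers of colorectal epithelium, CDX2, an intestinal transcription factor, and KRT20 were above background on all 12 arrays and EPCAM on 10, but VIL1 on 1 and CDH1, the epithelial cadherin, on 0.

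Human chromosome 12 carries on its short arm genes of glycolysis such as GAPDH, TPI1 and LDHB, and clusters of lectin-like receptors of immune cells. Its long arm carries CDK2 and CDK4, kinases of the cell cycle, many genes of chromatin regulators, and ribosomal protein genes. Cancer cell lines often gain or lose stretches of chromosomes, and genes in such a stretch are known to change expression together, which is why expression is read along a chromosome and not only gene by gene. DNA content was not measured on these arrays. 5-aza-dC is known to switch on genes whose promoters are methylated, and promoters of germ-line genes are among the usual examples.

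Promoters are shown for 3 genes of this chromosome that 5-aza-dC raised. GTSF1 and SYCP3 are germ-line genes that were below background in every mock array, and WIF1 encodes a secreted inhibitor of Wnt signals. Each line gives the 250 bases before the start of the gene, 5′ to 3′ on the strand of the gene, from RefSeq on GRCh38.p14, in lower case with every CG pair in capitals because CG is the pair that DNA methyltransferases act on. All 3 genes lie on the minus strand.
GTSF1: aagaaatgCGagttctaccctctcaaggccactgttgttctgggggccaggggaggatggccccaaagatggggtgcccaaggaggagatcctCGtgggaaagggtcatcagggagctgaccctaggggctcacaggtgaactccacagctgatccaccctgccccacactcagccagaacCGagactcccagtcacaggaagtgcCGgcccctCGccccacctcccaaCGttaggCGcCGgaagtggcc
SYCP3: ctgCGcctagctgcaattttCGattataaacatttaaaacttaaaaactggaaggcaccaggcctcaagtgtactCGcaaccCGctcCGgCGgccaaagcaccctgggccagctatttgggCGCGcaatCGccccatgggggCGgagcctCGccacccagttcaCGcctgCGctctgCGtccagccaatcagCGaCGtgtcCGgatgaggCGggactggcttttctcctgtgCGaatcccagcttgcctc
WIF1: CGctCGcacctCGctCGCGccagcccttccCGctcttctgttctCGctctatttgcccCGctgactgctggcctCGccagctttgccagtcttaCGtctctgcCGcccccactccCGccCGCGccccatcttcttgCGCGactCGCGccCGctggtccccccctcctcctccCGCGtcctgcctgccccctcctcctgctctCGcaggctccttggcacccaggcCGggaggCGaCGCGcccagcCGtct
They lie at chr12:54473603-54473852, chr12:101739463-101739712 and chr12:65121306-65121555 and hold 8, 19 and 27 CG pairs. They are examples only. Of the other raised genes named below with a promoter at hand, STAT6 held 11 pairs, PLBD1 13, ENO2 30, and KLRC1 and KLRC3 1 each. Of the lowered ones, TAS2R30 held 3, and FBRSL1 and POLE 35 each. The pair CG, which reads the same on both strands, occurred in 93.9% of all 35116 promoters of this length, with a median of 11 pairs. Over 476 promoters of tested chromosome 12 genes that were not called, the median was 20. A comparison of CG pairs between raised and other genes was void, because a promoter was at hand for 36 of the 65 raised genes only, which is 55.4%.

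To follow expression along the chromosome, 1 probe was taken for each gene, the brightest, from probes well above background on all 12 arrays. This left 665 genes of chromosome 12 and 11772 genes of the other 21 autosomes. The deviation of a gene on an array is its log2 signal, centred on the 75th percentile of the array, minus the median over the 6 arrays of the same condition and minus the median of the genes of the other autosomes on that array. It is thus a log2 difference and 0 stands for no deviation.

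Genes of chromosome 12 were lower in KD1 and KD3 than in the other 4 clones, before and after treatment. The median deviation over the 665 genes was -0.19 in KD1 and -0.21 in KD3 on mock arrays, and -0.24 and -0.28 on treated arrays. In the remaining clones it was 0.04, 0.07 and 0.10 in CONT1, CONT2 and CONT3 and 0.06 in KD2 on mock arrays, and 0.01, 0.07, 0.07 and 0.02 on treated arrays. The knockdown clones were thus not alike, and KD2 lay among the control clones. In KD3, chromosome 12 had the largest deviation in size of all 22 autosomes on both arrays. In KD1 it ranked 2 on both arrays, behind chromosome 13 at -0.54 and -0.52, a chromosome that was raised in KD2 at 0.28 and 0.29 and in KD3 at 0.21 and 0.22.

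**Figure D1:**
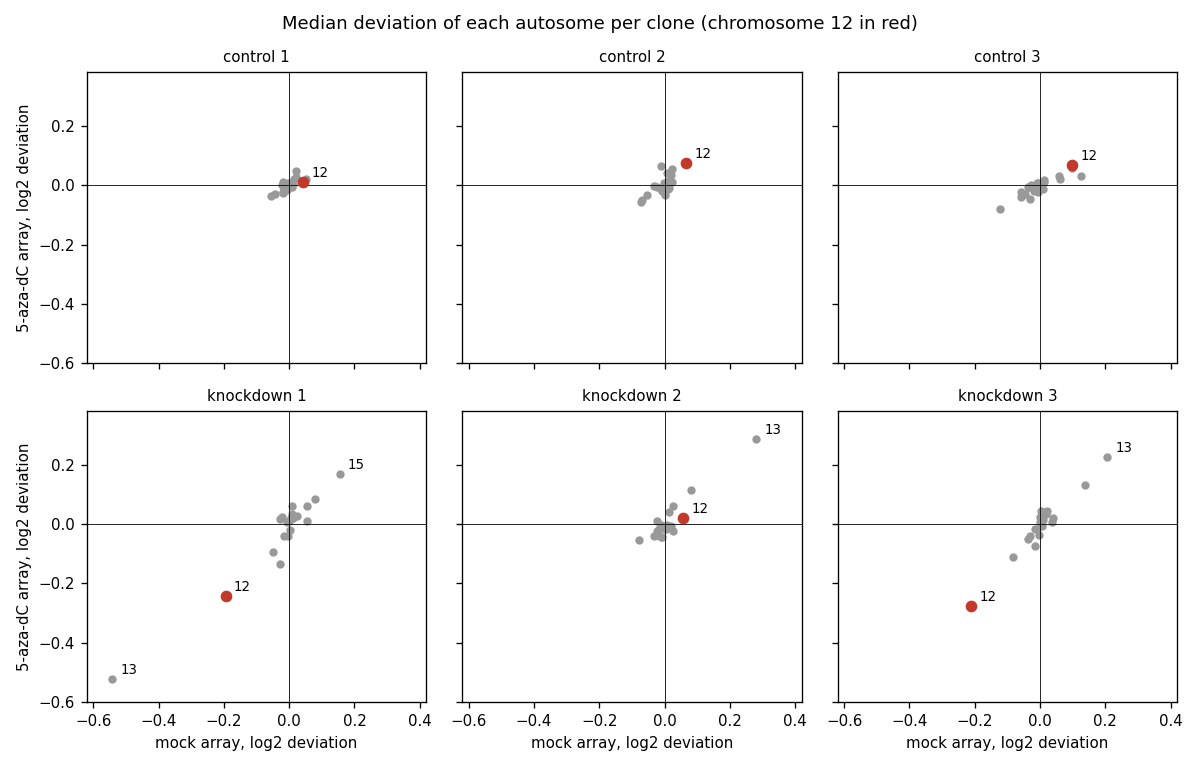
Each panel is 1 clone and each point 1 of the 22 autosomes, placed by the median log2 deviation of its genes on the mock array (horizontal) and on the 5-aza-dC array (vertical), with chromosome 12 in red and chromosomes beyond 0.15 in size on the mock array labelled. Chromosome 12 stands at -0.19 and -0.24 in KD1 and at -0.21 and -0.28 in KD3, and between 0.01 and 0.10 in the other 4 clones.

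The lower expression was not spread over the whole chromosome but lay in 2 blocks of the long arm. With genes grouped in bins of 5 Mb, KD1 fell by at least 0.2 on both of its arrays in 4 neighbouring bins from 40 to 60 Mb and in 7 bins from 100 to 135 Mb. KD3 did so in 5 bins from 40 to 65 Mb and in the same 7 bins from 100 to 135 Mb. The stretches from 40 to 65 Mb (200 genes) and from 100 to 135 Mb (214 genes) are called the proximal and the distal block below. Their limits, and the use of the 0.2 threshold alone, were chosen after the values were seen. The short arm, from 0 to 35 Mb (162 genes), and the interval from 65 to 100 Mb between the blocks (87 genes) did not show it.

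On mock arrays the median deviation of the proximal block was 0.06, 0.08 and 0.22 in CONT1, CONT2 and CONT3 and -0.33, 0.08 and -0.38 in KD1, KD2 and KD3. On treated arrays it was 0.01, 0.15 and 0.11 in the control clones and -0.48, 0.05 and -0.46 in the knockdown clones. The distal block read 0.08, 0.10 and 0.11 in mock control clones and -0.34, 0.11 and -0.35 in mock knockdown clones, and 0.03, 0.12, 0.08, -0.41, 0.02 and -0.39 in the same order after treatment. In both blocks KD1 and KD3 were the lowest clones on mock and on treated arrays, which follows from how the blocks were drawn. The short arm lay between -0.02 and 0.04 on all 12 arrays and the interval between the blocks between -0.08 and 0.05.

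**Figure D2:**
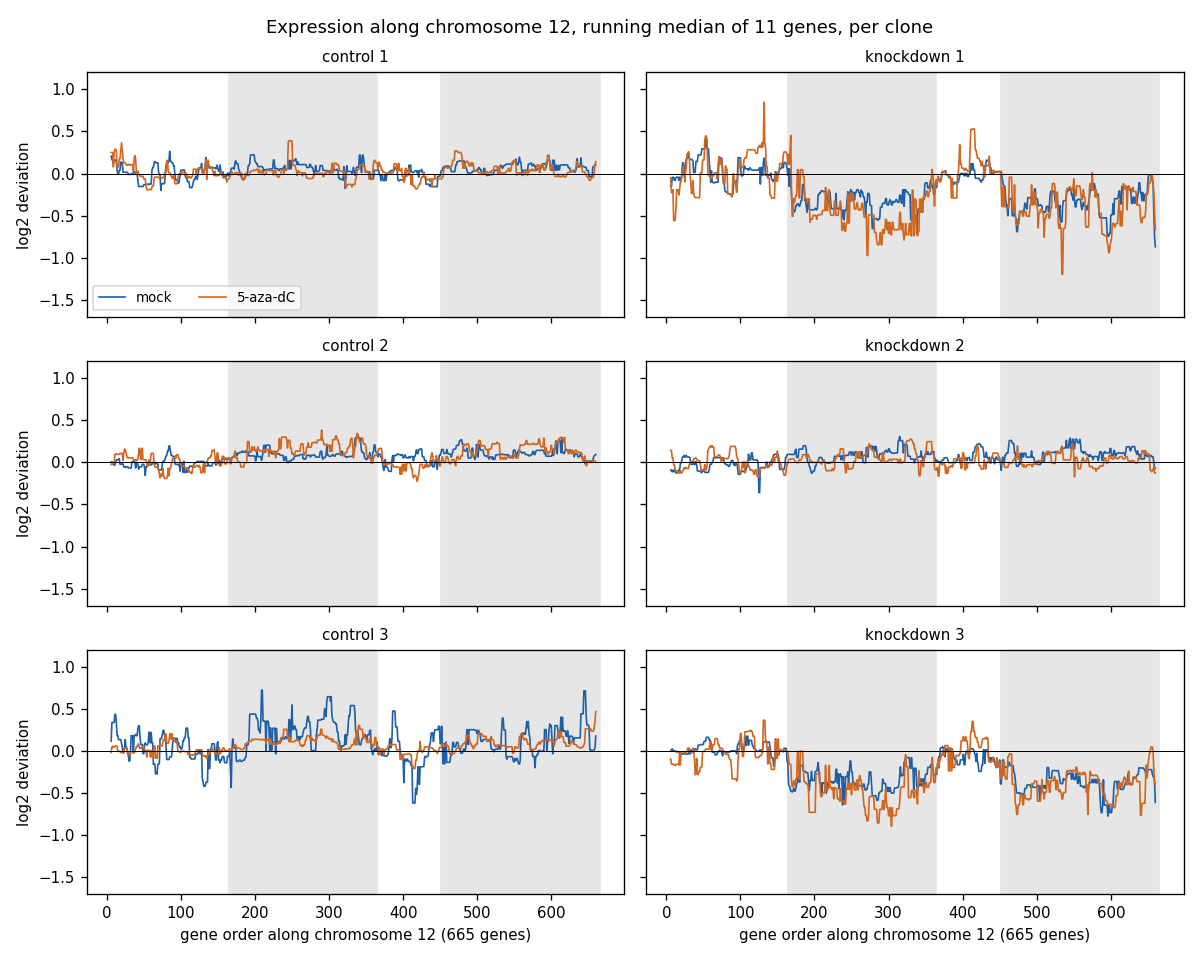
Running median over 11 neighbouring genes of the log2 deviation (vertical) against the order of the 665 genes along chromosome 12 (horizontal), in 1 panel per clone, with mock arrays in blue and 5-aza-dC arrays in orange; the proximal and the distal block are shaded. In KD1 and KD3 both lines drop in the shaded stretches and return towards 0 outside them, while in the other 4 clones the lines of the shaded stretches stay mostly near or above 0.

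**Figure D3:**
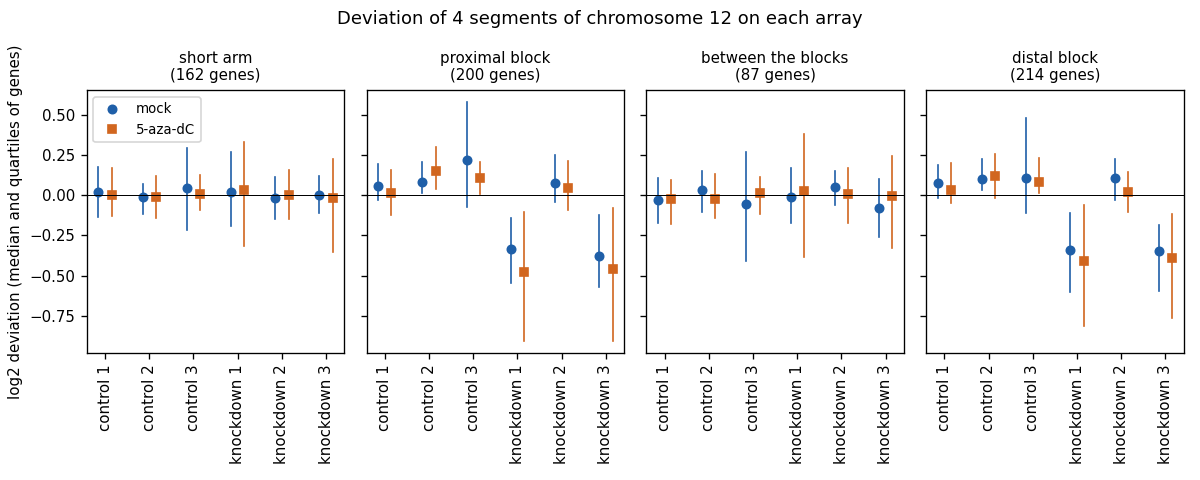
Median log2 deviation of the genes (points, vertical axis) and their quartiles (lines) in 4 segments of chromosome 12 for the mock array (blue circle) and the 5-aza-dC array (orange square) of each clone. KD1 and KD3 lie between -0.33 and -0.48 in the 2 blocks and between -0.08 and 0.03 in the other segments.

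A stricter rule, under which a bin must also lie outside the central 95% of the bins of the other autosomes on the same array, called 2 blocks, both in KD3, from 40 to 60 Mb (191 genes) and from 105 to 115 Mb (74 genes). KD1 had none under this rule, as its lower limits were -0.49 and -0.44, with chromosome 13 among the other autosomes. Just inside the threshold of 0.2 were the bins from 60 to 65 Mb in KD3 (-0.35 on the mock and -0.20 on the treated array) and from 125 to 130 Mb in KD1 (-0.22 and -0.21). Nearest outside it were the bins from 70 to 75 Mb, at -0.10 and -0.29 in KD1 and at -0.11 and -0.15 in KD3, and from 60 to 65 Mb in KD1, at -0.17 and -0.03. Counted with the 0.2 threshold alone over all autosomes, 34 such stretches were found on 11 chromosomes, 12 of them in KD1, 8 in KD3, 6 in KD2 and 2, 2 and 4 in CONT1, CONT2 and CONT3. Shifted stretches were therefore found in every clone and were not particular to chromosome 12.

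The 2 slides bear on these values, since on treated arrays KD1 and KD3 were the only clones on slide 1. There, slide and clone cannot be told apart. Mock arrays of CONT1, CONT2 and KD2 shared slide 1 with KD1 and KD3, and a second difference was taken from the mean of these 3 arrays, again minus the median of the other autosomes. It gave -0.48 in KD1 and -0.49 in KD3 for the proximal block and -0.51 in both for the distal block, which is 71.9%, 71.2%, 70.5% and 70.0% of the reference level. In the short arm it gave -0.03 and -0.01, and between the blocks -0.04 and -0.08. Against CONT1, CONT2 and KD2 one by one, KD1 lay between -0.43 and -0.49 in the proximal block and between -0.48 and -0.51 in the distal block. For KD3 the values were -0.50 to -0.51 and -0.47 to -0.55. The direct difference of KD3 from KD1 was 0.0050 in the proximal and -0.0047 in the distal block, and that of CONT2 from CONT1 was 0.03 in both.

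Most genes of a block took part, which the choice of the blocks from low bin medians of KD1 and KD3 largely fixed. In the proximal block 172 of 200 genes in KD1 and 179 in KD3 were below the slide 1 reference, and in the distal block 191 and 192 of 214, against 83 and 83 of 162 genes in the short arm and, by construction, 5886 of 11772 on the other autosomes. The quartiles of the difference in the proximal block were -0.71 and -0.25 in KD1 and -0.70 and -0.24 in KD3. Genes in the dimmest of 3 equal classes by mean signal over all arrays differed by -0.40 and -0.31 in the proximal block and by -0.34 and -0.43 in the distal block, and those in the brightest class by -0.50, -0.52, -0.54 and -0.57. Chromosome 12 probes that the profile did not use came from the same arrays and are no independent evidence. Further probes of named genes stood at -0.39 in KD1 and -0.31 in KD3 over 53 probes of the proximal block and at -0.29 and -0.28 over 79 probes of the distal block, on mock arrays against the 6-array reference. Probes without a gene symbol read -0.20 and -0.35 over 22 probes of the distal block, but -0.09 and 0.02 over 15 probes of the proximal block.

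Gene by gene, the edges could be placed only roughly, and they were picked after the values were seen. Near the centromere, KIF21A (chr12:39687018-39687030), which encodes a kinesin motor, stood at 0.60 and 0.35 in KD1 and KD3 against the slide 1 reference, and the next gene of the profile, GXYLT1 (chr12:42476605-42476664), at -0.28 and -1.01. At the other end of the proximal block, LEMD3 (chr12:65641987-65642046), a protein of the inner nuclear membrane, stood at -1.13 and -0.66 and its neighbour MSRB3 (chr12:65860358-65860417) at 0.13 and 0.28. LEMD3 and WIF1 thus lay past the 65 Mb limit of the bins and were still low. At the start of the distal block, IKBIP (chr12:99007479-99007538) stood at 0.54 and 0.72 and the next gene, UHRF1BP1L (chr12:100433540-100441339), at -0.32 and -0.62. This edge was not sharp in KD3, where LOC643770, LOC100128191 and TMPO before IKBIP already stood at -0.39, -0.40 and -0.65, against 0.29, 0.55 and -0.15 in KD1. The block ran to the last profiled gene, ZNF268 (chr12:133781677-133781736), at -0.95 and -1.25.

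By the rule for named genes, the 3 genes with the largest deviation in each block called in KD3 were SNORA34, GXYLT1 and NPFF in the proximal block and CHST11, RIC8B and C12orf51 in the distal block. NPFF (chr12:53900490-53900549), the precursor of a neuropeptide, had log2 signals of 1.43, 1.60 and 1.87 in mock control clones and of -0.27, 1.01 and -0.21 in mock KD1, KD2 and KD3. After 5-aza-dC it read 0.65, 1.11 and 1.11 against -0.69, 0.73 and -0.59. KD1 and KD3 were the lowest clones in both conditions and KD2 stood between them and most control clones.

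CHST11 (chr12:105151518-105151577), a sulfotransferase of chondroitin, read 2.13, 2.38 and 2.19 in mock control clones and 0.50, 1.51 and 0.69 in mock knockdown clones. On treated arrays the values were 1.99, 2.33 and 1.88 against 0.29, 1.62 and 0.43. RIC8B (chr12:107283012-107283071), a chaperone of G protein alpha subunits, read 1.06, 1.04 and 1.46 against -0.68, 1.21 and -0.13 in mock arrays, and 0.96, 1.03 and 1.08 against -1.24, 0.85 and -0.28 after treatment. In all 3 genes the treated array of KD1 and of KD3 stood as low as or lower than the mock array of the same clone, on the same slide.

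SNORA34 and GXYLT1 went another way. SNORA34, a small nucleolar RNA, read 1.02, 0.59, -0.35, 0.36 and -0.06 on the mock arrays of slide 1 (CONT1, CONT2, KD1, KD2 and KD3) but 2.60 on that of CONT3 on slide 2. After treatment it read between 2.24 and 2.93 on the 4 arrays of slide 2 and -0.43 on both arrays of slide 1. Its deviation therefore moved with the slide, and the part of the slide in it was not tested. For the stretches found with the threshold alone, the rule added HOTAIR, IRAK4, TAOK3, ZNF605, ZNF268 and CCDC92. Of these, HOTAIR, IRAK4, TAOK3, ZNF605 and ZNF268 likewise lay higher on every array of slide 2 than on any array of slide 1, as did GXYLT1, and CCDC92 did not. HOTAIR, a long noncoding RNA of the HOXC cluster, was kept by the rule because its name does not begin with HOX, and its mock signal in KD3 (3.67) was above that of CONT1 (3.44) and CONT2 (3.22).

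Genes with known functions were taken from 7 lists, of which 104 genes were on the array. Their members in the profile numbered 41 in the 2 blocks and 26 elsewhere on the chromosome. Against the slide 1 reference, the median of the 41 block genes was -0.55 in KD1 and -0.59 in KD3, and that of the 26 others 0.02 and -0.04. Of all profiled genes, 86% in KD1 and 89.5% in KD3 were lower in the proximal block. In the distal block the shares were 89.3% and 89.7%. The counts per list below lie near these shares and are no result about the lists.

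Chromatin regulators had 12 genes in the blocks, of which 12 were lower in KD1 and 12 in KD3, with medians of -0.70 and -0.79. MLL2 (KMT2D), a histone H3 lysine 4 methyltransferase, read 2.97, 3.27 and 4.06 in mock control clones and 2.05, 3.12 and 2.06 in mock knockdown clones. SETD1B, of the same enzyme family, read 0.84, 0.84 and 0.37 against -0.22, 0.81 and -0.34. KDM2B, a histone demethylase, read 1.44, 1.35 and 1.64 against 0.65, 1.36 and 0.58. In each of these genes KD1 and KD3 lay below all 4 other clones and KD2 within 0.2 of a control clone. On the short arm CHD4, a nucleosome remodeller, read 3.65, 3.59 and 3.91 against 3.73, 3.56 and 3.71, and the groups overlapped. Of the 4 chromatin genes outside the blocks, 3 were lower in KD1 and 1 in KD3, with medians of -0.10 and 0.09, among them PHC1, a Polycomb protein, at -0.34 and -0.11.

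Central metabolism had 7 genes in the blocks, and all 7 were lower in KD1 and in KD3, with medians of -0.54 and -0.57. CS, the citrate synthase of the Krebs cycle, read 6.83, 6.78 and 8.17 in mock control clones and 6.45, 7.14 and 6.30 in mock knockdown clones. ALDH2, the mitochondrial aldehyde dehydrogenase, read 4.09, 4.25 and 5.36 against 3.83, 4.53 and 3.75. In both genes CONT3, the mock array on slide 2, was the highest. CS, ALDH2 and MLL2 were higher on every array of slide 2, which held no array of KD1 or KD3, than on any of slide 1. The same was true of 14 of the 41 listed genes in the blocks and of 5 of the 26 elsewhere, where 3 more were lower on every array of slide 2, and the part of the slide in these levels was not tested. The share over all profiled genes is not given. Most arrays of slide 1 were of KD1 and KD3, whose low values drew the blocks, so these counts are no contrast between blocks and rest. Of the 5 genes of this list outside the blocks, 0 were lower in KD1 and 4 in KD3, and LDHB, a lactate dehydrogenase subunit, stood at 0.04 and -0.06.

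Of the 10 translation genes in the blocks, 10 were lower in KD1 and 10 in KD3, with medians of -0.54 and -0.40. RPS26, of the small ribosomal subunit, stood at -0.66 and -1.06, whereas RPLP0, of the large subunit, stood at -0.13 in both clones.

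The list of cell cycle, growth and DNA repair genes had 10 genes in the blocks, of which 9 were lower in KD1 and 8 in KD3, with medians of -0.41 and -0.52. CDK4 read 5.84, 5.89 and 6.56 in mock control clones against 5.59, 5.94 and 5.17 in mock knockdown clones, and TDG, a glycosylase that removes oxidised 5-methylcytosine, 5.54, 5.52 and 5.89 against 4.92, 5.33 and 4.69. PRIM1, a subunit of DNA primase inside the proximal block, did not take part. It stood at 0.56 and 0.32, with signals of 2.25, 2.43 and 2.32 in mock control clones and 3.31, 3.31 and 3.02 in mock knockdown clones. UNG, the uracil glycosylase, stood at -0.09 and 0.02. Outside the blocks 7 of 11 genes of this list were lower in KD1 and 6 in KD3, among them MDM2 at -0.53 and -0.32.

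Of the developmental regulators, TBX3, a T-box transcription factor, stood at -2.14 and -1.43 in the distal block and POU6F1 at -0.82 and -1.27 in the proximal block. Outside the 2 blocks SOX5 stood at -1.43 and -0.01, WIF1 at -1.99 and -0.76 and ALX1 at 1.10 and 0.60, so large differences in this list were not limited to the blocks. The 12p13 pluripotency cluster had no gene above background on all 12 arrays, with NANOG above background on 6 arrays, and 11 of 22 measured lectin-like receptors of 12p13 were above background on none. The 3 receptors in the profile were CLEC2D, CLEC4A and KLRG1, at 0.31, -0.88 and 0.08 in KD1 and 0.14, -0.90 and 0.29 in KD3.

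The comparison of knockdown with control clones asks how TET1 knockdown changed expression, and it is the contrast that singled the chromosome out, so its counts are given as a description. With limma over all probes tested and Benjamini-Hochberg adjustment, 1 of 1165 tested members was called on mock arrays at an adjusted p under 0.05, against 0.137% of all 24753 probes tested. It was B3GNT4 (chr12:122691670-122691729), a glycosyltransferase gene in the distal block. Its signals were -1.94, -1.74 and -1.88 in control clones and -3.56, -3.38 and -3.39 in knockdown clones, so that all 3 knockdown clones were lower, KD2 included, with a log2 change of -1.60 (SE 0.17, n = 3 against 3 clones). After 5-aza-dC it read -0.86, 0.38 and -0.56 against -2.91, -0.74 and -2.41, and the groups overlapped. The call was lost in 12 of 16 alternatives, among them each that left out 1 clone and slide as a block, and the log2 change ranged from -1.64 to -0.63 over the 16.

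Without adjustment, 163 members had a p under 0.05 on mock arrays, 129 of them lower in knockdown clones, where all probes gave 11.2% and 5.41% for the lower ones. On treated arrays 0 of 1181 tested members were called by limma, against 0.096% of 24998 probes, and 292 had an unadjusted p under 0.05, 224 of them lower, against 19.3% and 10% of all probes. The median log2 change between knockdown and control clones was -0.29 and -0.31 in the 2 blocks and 0.03 and -0.0053 in the short arm and between the blocks on mock arrays, and 0.05 on the other autosomes. After treatment it was -0.39, -0.41, -0.02, 0.07 and -0.00055 in the same order. As KD2 was not shifted, these means of 3 clones mix 2 shifted clones with 1 that was not. Without KD2 461 members were called on treated arrays and 5 on mock arrays. The share of all probes called in these fits is not given, so the counts are no result about the chromosome. On treated arrays KD1 and KD3 then lay on slide 1 and all control clones on slide 2. The 461 calls therefore cannot be told apart from the slide.

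Whether 5-aza-dC altered the blocks was read from treated minus mock signals within a clone, relative to the other autosomes. In KD1, with both arrays on slide 1, the median change was -0.07 in the proximal block, -0.0021 in the distal block, -0.04 in the short arm and 0.03 between the blocks. For KD3, also on slide 1, it was -0.04, -0.01, -0.03 and -0.02. CONT3, with both arrays on slide 2, gave -0.05, -0.0051, 0.00048 and -0.03. The blocks of KD1 and KD3 thus moved by at most 0.07 with treatment, against a deviation near -0.5. Taken from the same 3 mock arrays of slide 1, the treated arrays of KD1 and KD3 stood at -0.55 and -0.53 in the proximal and at -0.52 in both clones in the distal block.

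In the clones that changed slide with treatment the largest of these changes lay between the blocks. CONT1, CONT2 and KD2 changed by 0.08, 0.10 and 0.02 in the proximal block, by -0.07, -0.03 and -0.11 in the distal block, by -0.13, -0.04 and -0.11 in the short arm and by -0.18, -0.20 and -0.22 between the blocks. The 3 clones that kept their slide had changed by -0.03 to 0.03 between the blocks. The part of the slide in these changes was not tested. In the fit of clone type by 5-aza-dC, which asks whether the treatment acted differently in knockdown clones, limma called 0 of 1263 tested members, against 0.0366% of 27287 probes. The median SE over these members was 0.43. As CONT1 and CONT2 but only KD2 changed slide, the contrast mixes clone type with slide. The 0 calls therefore do not show that the treatment acted alike. At an unadjusted p under 0.05 there were 28 members, or 2.22%, against 2.47% of all probes.

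**Figure D4:**
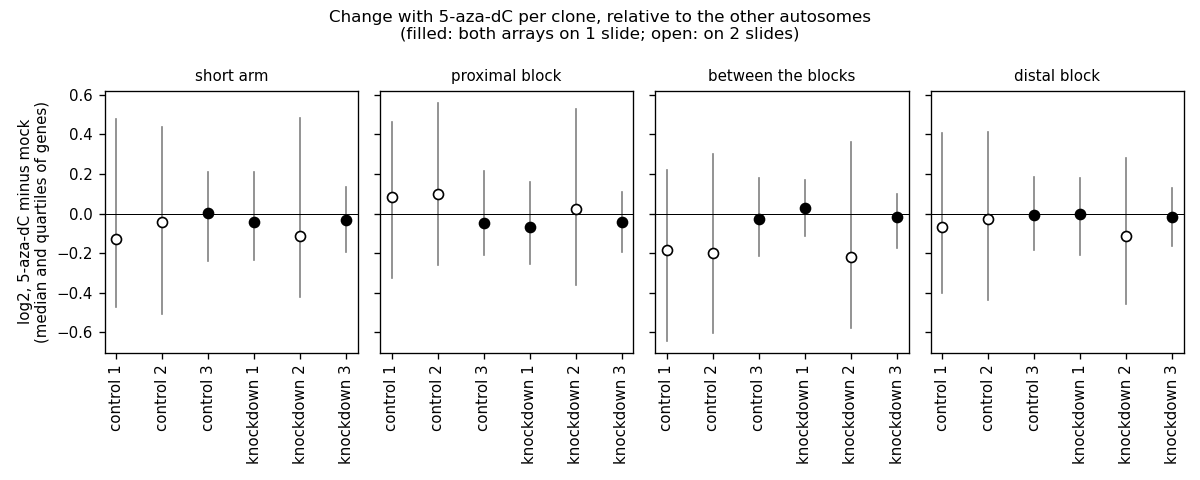
Median log2 change from mock to 5-aza-dC relative to the other autosomes (points, vertical axis) and quartiles over genes (lines) for each clone in 4 segments of chromosome 12; filled points are clones with both arrays on 1 slide, open points clones with arrays on 2 slides. Filled points lie between -0.07 and 0.03, and open points between -0.22 and 0.10.

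Single genes of chromosome 12 did respond to 5-aza-dC. Over all clones, limma called 165 of 1263 tested members (13.1%), against 13.2% of all 27287 probes. Of these, 76 probes rose, for 65 genes, where 7.29% of all probes rose, and 89 fell, for 69 genes, where 5.95% of all probes fell. The share of members called was thus near that of all probes. By fitted values, which are no bounds where mock arrays were below background, 60 of 76 raised probes and 22 of 89 lowered ones changed by at least 1 on the log2 scale, and 21 and 0 by at least 2. Of the 76 raised probes, 20 were well above background on no mock array, and of the 89 lowered ones 70 were above background on all 12 arrays.

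Calls were found in all 4 segments. Of the tested probes, 20 rose and 19 fell among 354 in the proximal block, 26 and 23 among 393 in the distal block, 23 and 31 among 336 in the short arm and 7 and 16 among 176 between the blocks, which is 11%, 12.5%, 16.1% and 13.1%. No test of the differences between these shares was made. With slide as a block 93 members were called, 72 of them shared with the 165, and with clone and slide together as blocks 62, 47 of them shared. Without CONT1 47 were called, without CONT2 43, without KD1 71 and without KD3 86. The share of all probes called in these alternative fits is not given, so their counts are no result about the chromosome. In the 3 clones that kept their slide, 76 of 76 raised probes were higher after treatment in CONT3, 74 in KD1 and 69 in KD3, with medians of 1.35, 1.74 and 0.85. Of the lowered probes, 88, 86 and 85 of 89 were lower, with medians of -0.67, -0.42 and -0.38. These clones were part of the fit that called the probes. The choice of probes therefore largely fixed the directions, which are no independent evidence. In CONT1, CONT2 and KD2, which changed slide, the medians were -1.06, -1.07 and -0.94 for the lowered probes. For the raised probes they were 1.76, 1.69 and 1.71. The part of the slide in these sizes was not tested.

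GTSF1 (chr12:54849745-54849804), which encodes a partner of the piRNA pathway in germ cells, was raised in all clones. Its log2 signals were -6.15, -6.35, -4.74, -5.86, -5.74 and -6.31 on mock arrays of CONT1 to CONT3 and KD1 to KD3, well above background on none, and 3.51, 1.50, 1.19, 1.68, 2.12 and 1.59 after treatment. Every treated array was far above every mock array, and it rose at least 62.8-fold, by the mean of the treated arrays over the lowest signal called above background (raised in 6 of 6 clones). Such lower bounds are given where no mock array measured the probe. These probes passed the filter, well above background on at least 3 arrays, through treated arrays only, so no p-value is given for them.

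SYCP3 (chr12:102128796-102130847), a protein of the meiotic synaptonemal complex in the distal block, read -5.39, -5.66, -5.56, -5.80, -5.76 and -6.29 on mock and -1.61, -2.32, -2.00, -0.68, -1.39 and -0.90 on treated arrays. It rose at least 5.88-fold, and the treated knockdown clones, KD1 and KD3 of the low blocks included, lay above the treated control clones. STAT6 (chr12:57489651-57489710), the transcription factor of interleukin-4 signalling, lies in the proximal block and rose at least 13.8-fold. After treatment it read 1.55, 0.06 and 0.25 in control clones and -1.78, -0.24 and -1.29 in knockdown clones, and KD1 and KD3 were the lowest.

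On the short arm, IFFO1 (chr12:6648847-6648906), an intermediate filament family member, read -2.25, -1.63, -2.44, -3.68, -2.94 and -3.05 on mock and 2.30, 1.85, 1.65, 1.72, 2.20 and 2.09 on treated arrays, a log2 change of 4.63 (SE 0.20, adjusted p = 2.7e-07, limma). PLBD1 (chr12:14656631-14656690), a phospholipase-like protein, changed by 3.98 (SE 0.41). It was above background on 1 of 6 mock arrays only, so it too passed the filter through its treated arrays and no p-value is given. In all 5 of these raised genes the groups of mock and treated arrays did not overlap, which the rule for named genes required. The same direction in all 6 clones follows from that.

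Falls were smaller. TAS2R30 (chr12:11285920-11285979), a bitter taste receptor, read -0.05, 0.04, -0.62, -0.26, -0.19 and -0.15 on mock and -0.82, -1.60, -1.21, -0.95, -0.87 and -1.08 on treated arrays, a log2 change of -0.88 (SE 0.17, adjusted p = 0.0070, limma), a call that was lost with clone and slide together as blocks. LOC100129940 (chr12:66249847-66249906) fell by 1.46 (SE 0.18) and LOC100509541 (chr12:52485953-52486012) by 0.90 (SE 0.21), both without a named function. LOC100129940 was well above background on 3 of 6 treated arrays only, so its fitted fall is no exact size. The call of LOC100509541 was lost without CONT1, CONT2, KD1 or KD3 and with clone and slide together as blocks, and its log2 change ranged from -1.14 to -0.39 over 15 alternatives. One probe of HMGA2 (chr12:66359789-66359848), an architectural chromatin protein, fell by 1.24 (SE 0.17, adjusted p = 0.00095, limma), but its brightest probe (chr12:66219101-66219160) changed by 0.18 (SE 0.14) and a further one by -0.56 (SE 0.20), neither called. FBRSL1 likewise had 1 probe that fell by 1.24 (SE 0.23) and 4 probes, at -0.01, 0.24, 0.33 and 0.41, that were not called. Its lowered probe was well above background on 2 of 6 treated arrays only, so the fitted fall is no exact size. The call of the lowered probe was lost without CONT1 and with clone and slide together as blocks. On it KD1 and KD3, each with both arrays on slide 1, read -3.13 and -3.23 on mock and -3.24 and -3.42 on treated arrays.

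**Figure D5:**
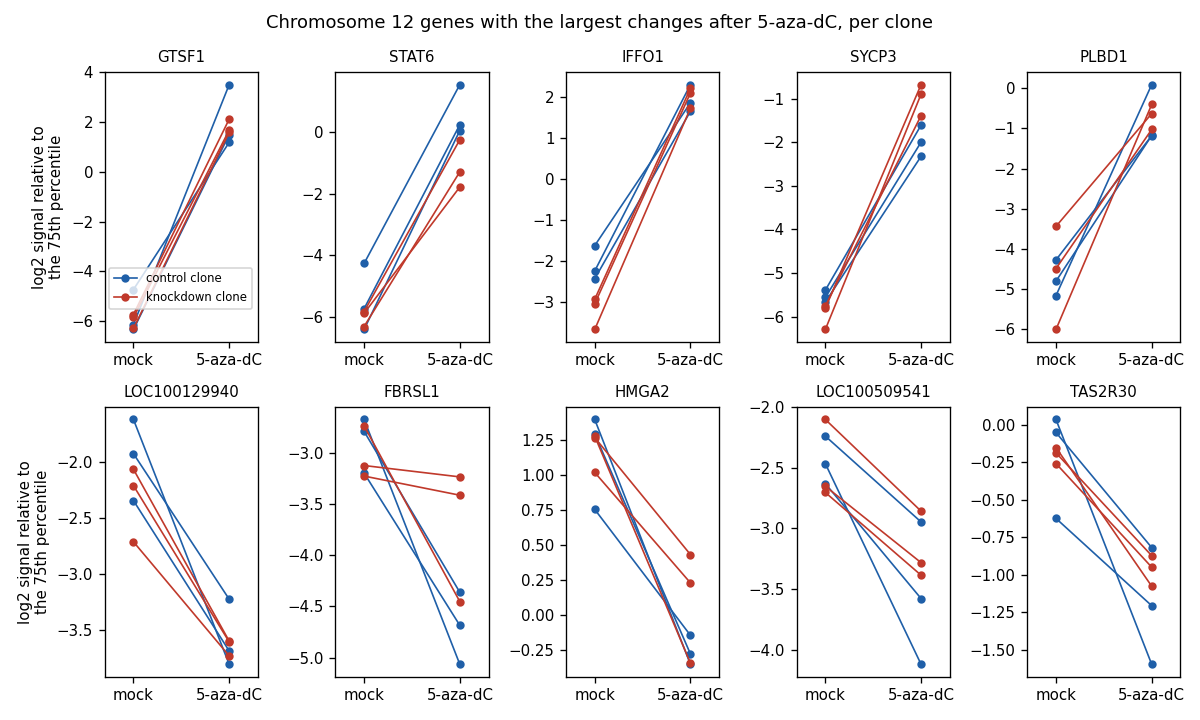
Log2 signal relative to the 75th percentile of the array (vertical, with its own scale in each panel) on mock and 5-aza-dC arrays, joined for each clone, with control clones in blue and knockdown clones in red, for the 5 raised (top) and 5 lowered (bottom) chromosome 12 genes with the largest fitted change that met the rule for named genes. Mock and treated arrays do not overlap in any of the 10 panels because the rule required it. The median change was 1.55 over the 76 raised probes and -0.77 over the 89 lowered probes.

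Among the lists, 5-aza-dC raised ENO2, a neuronal enolase, WIF1, and KLRC1 and KLRC3, lectin-like receptors of natural killer cells, and lowered POLE, the catalytic subunit of DNA polymerase epsilon. WIF1 (chr12:65444732-65444791) read 0.47, -0.45, -0.66, -2.11, -0.61 and -0.93 on mock and 3.75, 3.12, 2.51, 2.01, 2.66 and 1.39 on treated arrays, a log2 change of 3.29 (SE 0.35, adjusted p = 0.00017, limma), with KD1 lowest before and KD3 lowest after treatment. ENO2 changed by 3.33 (SE 0.62, adjusted p = 0.0064, limma), and KLRC3 rose at least 2.13-fold from below background on all mock arrays. POLE was described by its brightest probe, which fell by 0.70 (SE 0.13) but lost its call with clone and slide together as blocks, and a second probe fell by 0.92 (SE 0.22). The call of KLRC1 was lost in 7 of 15 alternatives, among them slide as a block and each that left out CONT1, CONT2, CONT3, KD1 or KD3, with a log2 change of 0.77 to 2.18. A second KLRC1 probe changed by 0.50 (SE 0.46) and was not called.

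By list, 1 of 14 tested genes of central metabolism was raised and 0 lowered, 0 of 22 of the cell cycle list raised and 1 lowered, 2 of 8 lectin-like receptors raised, and 0 of 16 chromatin, 0 of 10 translation and 0 of 1 pluripotency genes called. Median log2 changes were 0.16, -0.13, 0.58, -0.16, -0.0073 and -0.38 in that order, beside -0.05 over all probes tested. Members of these lists tested between knockdown and control clones, or for the interaction, were called in 0 cases by limma, as were all other members apart from B3GNT4.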

How the data were processed

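Total RNA of 6 Colo320DM clones, each mock-treated and treated with 5-aza-dC, had been hybridised to 12 one-colour Agilent arrays. The authors deposited the scanner output as signal intensities, which per the file headers came from Agilent's Feature Extraction software (version 10.7.3.1), background-subtracted and detrended within each array but not normalized between arrays. The processed signal of each probe was expressed as log2 after division by the 75th percentile of all signals on that array. Control spots were left out, as were 268 to 395 spots per array marked as outliers, repeated spots were averaged, and 0 spots were saturated. The 75th percentile was a signal of 241 to 359, and between 49.2% and 55.2% of the chromosome 12 probes exceeded background on each array.

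Groups followed the labels. Fits were made with limma 3.58.1 in R 4.3.3 (lmFit and eBayes, two-sided, Benjamini-Hochberg over all probes tested, threshold 0.05) on probes well above background on at least 3 arrays of the fit, and scripts were tested on simulated data. In place of the t-test named in the methods, limma was the main test. Bins held at least 5 genes. Mock and treated arrays with the same number came from the same clone: their deviations from the group means correlated at 0.32, 0.24 and 0.21 in control and 0.52, 0.46 and 0.43 in knockdown clones over 27287 probes. Named were the genes of 7 lists, the 3 genes with the largest deviation in each block, and for each comparison the 5 largest called rises and falls among genes whose groups did not overlap and whose brighter group exceeded background on all of its arrays. The members and lists were chosen with earlier results of these data known. Alternatives covered normalization, background correction, scale, filters, reference, bins, slide and clone as blocks, and left-out clones. The slide 1 reference, the 0.2 threshold alone and limits without chromosome 13 were chosen after seeing the data. Some genes of the lists, and the count of called developmental regulators, are not reported here.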

Additional observations from a re-analysis of the deposited data

How the results depend on the processing

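In the blocks, KD1 and KD3 were below 0 on both arrays under all 16 settings tried, with medians of -0.56 to -0.02 in KD1 and -0.60 to -0.09 in KD3. The blocks had been drawn from low values of these clones on the same arrays, so their sign is no independent evidence. The number of chromosome 12 blocks, 2 in the report, was 4 with the 0.2 threshold alone, 4 with limits taken without chromosome 13, 0 with the median of the same slide as reference, and 0 to 3 without 1 clone at a time (0 without KD3, 3 without CONT3). With the slide reference, where 4 of the 7 arrays of slide 1 were of KD1 and KD3, the chromosome 12 deviation was 0.17, 0.17 and 0.029 in mock CONT1, CONT2 and CONT3, -0.024, 0.23 and -0.020 in mock KD1, KD2 and KD3, and -0.033, 0.018 and 0 in treated CONT1, CONT2 and CONT3. With the mean as reference it was 0.11, 0.12 and 0.15 in mock and 0.087, 0.14 and 0.15 in treated control clones. It was 0.0498 in mock CONT3 after quantile normalization, 0.0429 there after normexp, and 0.11 in treated CONT2 with the array median as scale. Without 1 other clone at a time it was 0 to 0 in mock CONT1, 0 to 0.023 in mock CONT2, 0.065 to 0.13 in mock CONT3, 0 to 0 in treated CONT1, 0.067 to 0.15 in treated CONT2 and 0 to 0.079 in treated CONT3, while KD1 stayed between -0.32 and -0.10 and KD3 between -0.35 and -0.16.

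For knockdown against control clones on mock arrays, where limma called 1 member, 0 were called after normexp, without a filter, with probes above background on every array, with slide as a block and by the methods' t-test (128 members at an unadjusted p under 0.05), 2 with the array median as scale, 2 with all 12 arrays in the fit, and 0 to 5 without 1 clone at a time. On treated arrays 7 were called with all 12 arrays in the fit and 0 to 461 without 1 clone at a time, the 461 without KD2. Without the share of all probes called beside them, these counts are no result about the chromosome. For 5-aza-dC, where 76 members rose and 89 fell, 405 were called with the array median as scale (64 higher, 341 lower), under which the median change of all probes was -0.29 and not -0.05, 103 with probes above background on every array (30 and 73), and 93 with slide as a block (42 and 51). Quantile normalization gave 66 higher and 126 lower, normexp 61 and 122, and leaving out 1 clone at a time 43 to 209 calls. Under the pairing, the replicate block gave 214 calls and the replicate block with slide 62. For these counts, too, the share of all probes called is not given, and they are no result about the chromosome. The interaction had 0 calls in limma under every alternative, the replicate block included. Among the named genes called after 5-aza-dC, and B3GNT4, none changed direction under any alternative run for them. POLE, TAS2R30, FBRSL1 and LOC100509541 lost their call with clone and slide as blocks. The causes were not tested.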
